A study of Mus musculus with 12 samples.

Results

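The 8 genes described here, *Myh3*, *Myh8*, *Myh1*, *Myh2*, *Myh4*, *Myh6*, *Myh7* and *Myh11*, encode the heavy chains of muscle myosin and were found by their symbols among the 52550 genes counted in neonatal mouse lung. They comprise 5 skeletal muscle forms, 2 cardiac forms and 1 smooth muscle form. The genes were chosen by their measured counts in these libraries, above all those of WT mice given lipopolysaccharide (LPS). Every comparison that uses the WT LPS libraries is therefore given as a description, with no p-value.

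A myosin heavy chain is the motor subunit of the thick filament, which pulls on actin as it splits ATP. Skeletal muscle exchanges its heavy chains as it matures, from an embryonic form (*Myh3*) and a neonatal form (*Myh8*) to the fast adult forms IIx (*Myh1*), IIa (*Myh2*) and IIb (*Myh4*). Heart muscle uses the alpha chain of *Myh6* and the beta chain of *Myh7*, and the beta chain also serves slow skeletal fibres. *Myh11* encodes the heavy chain of smooth muscle, which in the lung lies in the walls of airways and vessels, and in mice heart muscle cells also line the pulmonary veins.

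Whole lungs were taken from C57BL/6J mice, either WT or *Adm*+/-, on postnatal day 5. *Adm*+/- mice lack 1 of the 2 copies of the adrenomedullin gene, in a line first made in 129/SvEv mice and crossed back to C57BL/6J for 12 generations. Mice of both genotypes received PBS or LPS from *Escherichia coli* at 6 mg/kg into the peritoneum on each of 3 days from postnatal day 3, and the lungs were frozen 6 h after the last injection. Libraries are named by their number in the labels, which gives WT PBS 3, 4 and 5, WT LPS 9, 10 and 11, *Adm*+/- PBS 6, 7 and 8, and *Adm*+/- LPS 1, 2 and 12. Each group holds 3 mice, and no source used here gives their litters, so p-values measure the spread between these mice only.

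Levels are given in CPM, the count of a gene scaled to a library size adjusted by the TMM method, with the SD of 3 mice. Total counts on genes ranged from 22382535 to 38062873 per library. WT PBS 5 and *Adm*+/- PBS 6 stood apart from the rest, with 77.8% and 80.1% of counts on protein-coding genes and 16.6% and 13.3% on the non-coding gene *Gm26917*, and results that change without them are given both ways. The targeted gene *Adm* ranged from 3.96 to 8.15 CPM in the 6 WT libraries and from 2.87 to 6.28 CPM in the 6 *Adm*+/- libraries. None of the 8 lung identity genes was at 0 in any library, and their summed level lay between 13143 and 16713 CPM. A gene was called when its p, adjusted by Benjamini-Hochberg, was under 0.05 and its log2 fold change exceeded 0.5 in size in edgeR's quasi-likelihood fit of 15885 protein-coding genes in 12 libraries. All 8 members passed its filter on low counts, *Myh2* and *Myh4* only through WT LPS, since no other library had 10 or more counts of *Myh2* and only *Adm*+/- LPS 1 had as many of *Myh4*.

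The 5 skeletal genes form a single cluster of 230 kb on chromosome 11 of mm10, all on the plus strand, in the order *Myh3* (67078300 to 67102291), *Myh2* (67171027 to 67197517), *Myh1* (67200052 to 67224575), *Myh4* (67238029 to 67260446) and *Myh8* (67277124 to 67308634). In Gencode M21, *Myh1* overlaps *Myhas* and *Myh2* overlaps 9430073C21Rik on the opposite strand. *Myh6* (54941921 to 54966927) and *Myh7* (54970684 to 54994626) lie side by side on the minus strand of chromosome 14. *Myh6* and *Myh7* overlap Mir208a and Mir208b on their own strand, and *Myh7* overlaps *Mhrt* and 3 other genes on the opposite strand. *Myh11* lies alone on the minus strand of chromosome 16 (14194535 to 14291372). Coding sequences of the neonatal and adult skeletal forms were 87.9% to 91.0% identical, and *Myh3* was 80.3% to 81.2% identical to these 4. *Myh6* and *Myh7* were 91.7% identical, and *Myh11* was 55.3% to 57.4% identical to the other members. Runs of 100 bases shared exactly with another member made up 9.46% of *Myh1*, 9.17% of *Myh2*, 5.17% of *Myh8*, 3.92% of *Myh4*, 11.6% of *Myh6*, 11.2% of *Myh7* and none of *Myh3* or *Myh11*. For runs of 50 bases these shares were 18.9% to 26.7% in the same 6 genes, 3.68% in *Myh3* and 0 in *Myh11*, and the read length is not given in the sources used here. A read that lies wholly within such a run matches more than 1 gene. How the counting treated such reads is not given in the sources used here, so the split between these 6 genes is less certain than that of *Myh3* or *Myh11*.

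The promoters of the 5 skeletal genes are shown because these genes were high in the same libraries. The stretches below are from RefSeq (GRCm38.p6), whose promoter windows run from 250 bases before to 50 bases after a gene's start, and hold the bases before the start in the RefSeq table. For *Myh1* the last 50 of these bases are left out, since Gencode places an exon there. RefSeq windows were found for 7 of the 8 members. Capitals mark 2 runs of letters that a script found shared between members. The first, TTCTAATTATATCC, stood in *Myh8*, *Myh1*, *Myh2* and *Myh4*. The second, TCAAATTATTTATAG, stood in *Myh8*, *Myh1* and *Myh4* and holds the MEF2 site of these 3 genes.
Myh3, chr11:67078050-67078299, + strand: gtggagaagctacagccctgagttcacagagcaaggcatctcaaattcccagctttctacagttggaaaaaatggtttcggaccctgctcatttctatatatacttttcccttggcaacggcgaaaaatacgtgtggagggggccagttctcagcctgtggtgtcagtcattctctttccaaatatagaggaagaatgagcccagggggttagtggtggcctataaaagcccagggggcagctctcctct
Myh8, chr11:67276874-67277123, + strand: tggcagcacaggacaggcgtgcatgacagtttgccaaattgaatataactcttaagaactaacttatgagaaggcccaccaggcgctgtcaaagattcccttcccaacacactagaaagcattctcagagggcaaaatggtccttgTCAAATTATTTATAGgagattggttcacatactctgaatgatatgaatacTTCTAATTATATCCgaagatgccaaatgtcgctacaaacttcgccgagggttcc
Myh1, chr11:67199852-67200051, + strand: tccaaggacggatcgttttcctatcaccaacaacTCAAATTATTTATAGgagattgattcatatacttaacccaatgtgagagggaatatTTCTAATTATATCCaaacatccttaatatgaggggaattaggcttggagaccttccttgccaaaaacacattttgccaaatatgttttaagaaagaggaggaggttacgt
Myh2, chr11:67170777-67171026, + strand: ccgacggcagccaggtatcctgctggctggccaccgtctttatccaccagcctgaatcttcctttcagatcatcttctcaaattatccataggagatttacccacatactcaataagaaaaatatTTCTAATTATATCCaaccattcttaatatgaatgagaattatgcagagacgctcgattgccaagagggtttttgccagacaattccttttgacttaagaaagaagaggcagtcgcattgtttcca
Myh4, chr11:67237562-67237811, + strand: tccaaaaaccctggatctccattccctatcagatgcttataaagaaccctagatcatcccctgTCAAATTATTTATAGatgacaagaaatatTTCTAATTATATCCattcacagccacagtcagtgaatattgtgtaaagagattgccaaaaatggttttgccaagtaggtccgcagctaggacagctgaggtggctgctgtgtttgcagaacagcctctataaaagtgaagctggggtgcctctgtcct
Of all 32851 windows, searched on both strands, the first run stood in 4 (0.0122%) and the second in 3 (0.00913%), which were those of the members named. Counted to the first letter of the run, the first began at position −54 in *Myh8*, −160 in *Myh1*, −125 in *Myh2* and −158 in *Myh4*, so that it lay nearer to the start in *Myh8* than in the adult forms. The second began at −104 in *Myh8*, −216 in *Myh1* and −187 in *Myh4*. *Myh3* held neither run. A MEF2 site, the target of a muscle transcription factor family, stood in 2.92% of all windows and the letters TATAAA in 12.4%. On the plus strand TATAAA began at −29 in *Myh3*, at −32 in *Myh1*, within the bases not shown, and at −213 and −31 in *Myh4*. The second run, and with it *Myh8*, holds these letters on the opposite strand. These matches describe letters in a window and not binding.

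In the lungs of WT mice given PBS, smooth muscle and cardiac heavy chains were the abundant forms and the skeletal forms were close to absent. To compare genes, levels were divided by the length of the coding sequence (5805 to 5937 bases), because the exon length of *Myh8* (11772 bases) includes retained introns of Gencode transcripts. On this scale *Myh11* had 82.4 CPM per kb, *Myh6* 45.2, *Myh7* 8.96, *Myh8* 0.416, *Myh3* 0.0992, *Myh1* 0.0441 and *Myh2* 0.0150 CPM per kb, while *Myh4* had 0 counts. Neighbours in this order did not overlap from *Myh11* down to *Myh8*, whereas the ranges of *Myh8*, *Myh3*, *Myh1* and *Myh2* each overlapped the next, so their order is not set by these data. All 5 skeletal forms together had 79, 25 and 93 counts in WT PBS 3, 4 and 5.

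In WT LPS the same scale gave another order, with *Myh8* at 87.2 CPM per kb, *Myh11* at 73.5, *Myh6* at 32.2, *Myh3* at 21.8, *Myh1* at 14.3, *Myh7* at 7.11, *Myh4* at 4.72 and *Myh2* at 0.936 CPM per kb. *Myh11* and *Myh6* did not overlap, and every other pair of neighbours did. Per kb of exon, *Myh11* (57.4 CPM) stood above *Myh8* (43 CPM). The plot of CPM by library sets the 8 members side by side.

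**Figure D1:**
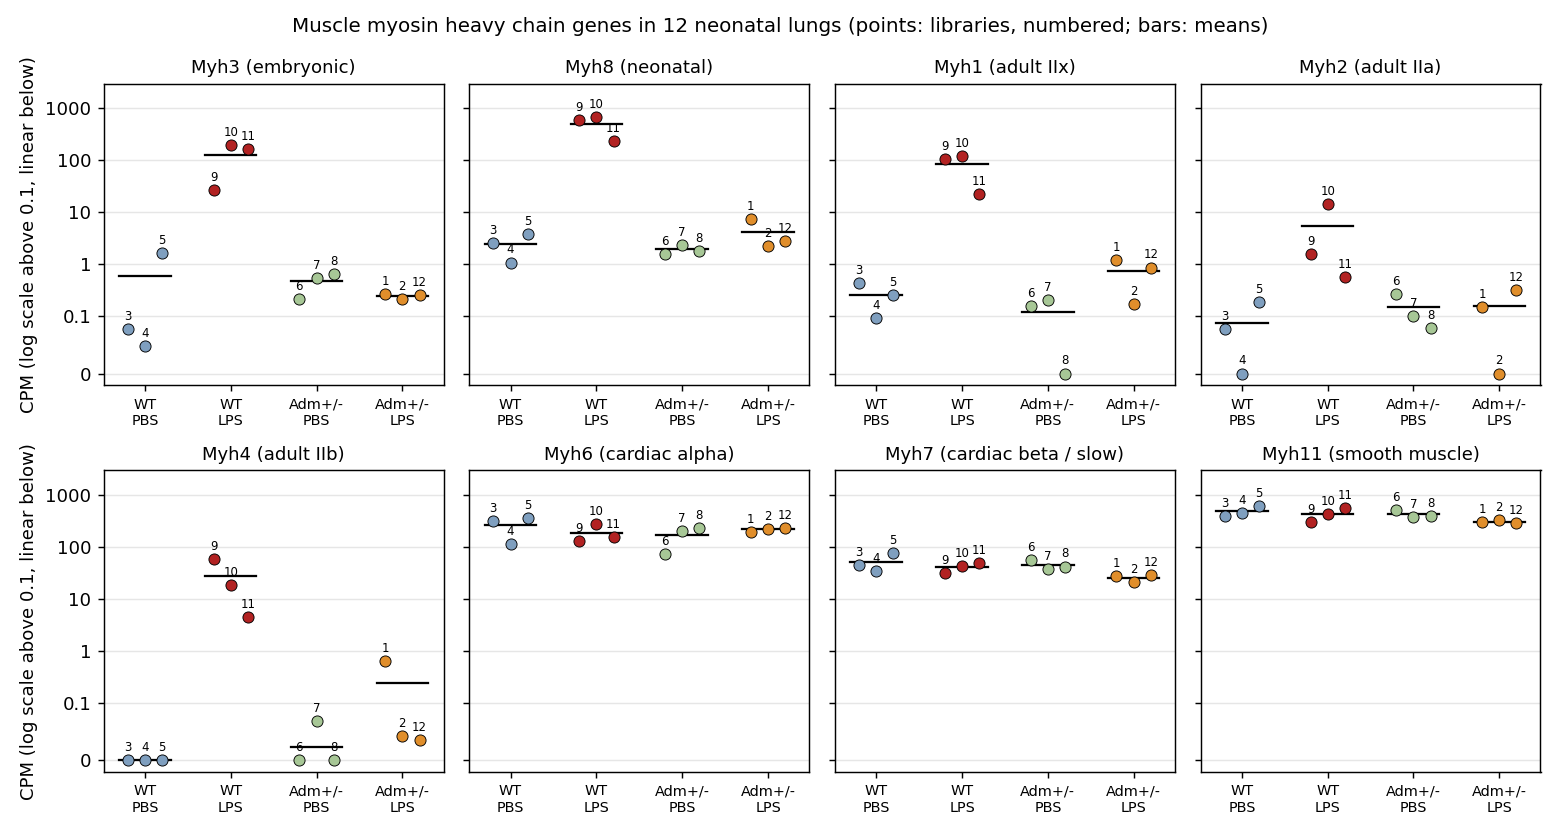
Level of each member in the 12 libraries, in CPM on an axis that is logarithmic above 0.1 and linear below it, with 1 point per library, numbered by replicate, and a bar at the mean of each group. The 3 WT LPS libraries lie above the other 9 for *Myh3*, *Myh8*, *Myh1*, *Myh2* and *Myh4*, and among the others for *Myh6*, *Myh7* and *Myh11*.

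The neonatal and embryonic forms had the highest mean levels per kb of coding sequence among the skeletal genes in WT LPS. *Myh8* (ENSMUSG00000055775), the neonatal heavy chain, had 593, 688 and 239 CPM in WT LPS 9, 10 and 11. Its level was 2.49, 1.07 and 3.71 CPM in WT PBS, 1.58, 2.37 and 1.79 CPM in *Adm*+/- PBS, and 7.48, 2.26 and 2.78 CPM in *Adm*+/- LPS 1, 2 and 12. No WT LPS library overlapped any other, and *Adm*+/- LPS 1 was the highest of the remaining 9. The mean in WT LPS was 507 ± 237 CPM (SD, n = 3), 209 times that in WT PBS (2.42 ± 1.32 CPM).

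*Myh3* (ENSMUSG00000020908), the embryonic heavy chain, had 26.6, 193 and 162 CPM in WT LPS 9, 10 and 11. In WT PBS it had 0.0777, 0.0485 and 1.61 CPM, the last being WT PBS 5 with 26 counts against 2 and 1. In the *Adm*+/- libraries it ranged from 0.209 to 0.636 CPM, or 4 to 16 counts. WT LPS 9 lay close to WT LPS 10 for *Myh8* and was the lowest of the 3 for *Myh3*. The mean in WT LPS (127 ± 88.5 CPM) was 220 times that in WT PBS (0.577 ± 0.891 CPM), and WT PBS 5 carried most of the WT PBS level.

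The fast adult forms had lower means in WT LPS, although *Myh1* and *Myh4* stood above *Myh3* in WT LPS 9. *Myh1* (ENSMUSG00000056328, type IIx) had 107, 120 and 22.8 CPM in WT LPS 9, 10 and 11, against 0.0971 to 0.427 CPM in WT PBS and 0 to 0.203 CPM in *Adm*+/- PBS. *Adm*+/- LPS 1, 2 and 12 had 1.20, 0.168 and 0.855 CPM. Its mean in WT LPS, 83.2 ± 52.7 CPM, was 324 times that in WT PBS, and WT LPS 10 had 5.26 times the level of WT LPS 11. The 3 WT LPS libraries lay above the other 9.

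*Myh4* (ENSMUSG00000057003, type IIb) had 59.7, 18.2 and 4.54 CPM in WT LPS 9, 10 and 11, a spread of 13.1 times between libraries. It had 0 counts in each WT PBS library, which allows up to 3 counts per library, and WT LPS (27.5 ± 28.7 CPM) was at least 184-fold higher. With 1 library left out this bound ran from 76.3, without WT LPS 9, to 261. In *Adm*+/- PBS only library 7 had counts, 2 in number. *Adm*+/- LPS 1 had 17 counts, and *Adm*+/- LPS 2 and 12 had 1 each.

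*Myh2* (ENSMUSG00000033196, type IIa) had the lowest mean of the skeletal forms in WT LPS. It had 14.3 CPM in WT LPS 10, 1.54 CPM in WT LPS 9 and 0.558 CPM in WT LPS 11, so that 343 of the 407 counts of this group came from 1 library. The other 9 libraries had between 0 and 9 counts. WT LPS (5.45 ± 7.65 CPM) was 62.2 times WT PBS (5 counts in all), and the ratio of the summed counts had an exact 95% interval of 26.5 to 193 for counting error only.

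In the edgeR fit, 5 of the 8 members were called higher in WT LPS than in WT PBS, and 10.5% of all genes were called in that direction. The log2 fold changes were 8.01 for *Myh3* (standard error 0.95), 7.73 for *Myh8* (0.63), 8.25 for *Myh1* (0.84) and 5.98 for *Myh2* (1.39). Without WT PBS 5 the values for *Myh3* and *Myh2* were 10.83 and 6.82, without WT PBS 3 that for *Myh1* was 8.94, and without WT LPS 10 that for *Myh2* was 3.64. *Myh2* was no longer called with limma-voom or when only the 6 libraries of the comparison were fitted. In 18.3% of all genes every WT LPS library lay above every WT PBS library, as it did for these 5 members. Every WT LPS library lay above all 9 other libraries for 5 of 8 members, which held for 3.00% of all genes tested. These counts use the values by which the genes were chosen and carry no further weight.

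The mix of skeletal forms differed between the WT LPS libraries. In WT LPS 9, which had 25554 skeletal *Myh* counts, *Myh8* took 75.3%, *Myh1* 13.6%, *Myh4* 7.58% and *Myh3* 3.37%. In WT LPS 10, with 24857 counts, *Myh8* took 66.6%, *Myh3* 18.7%, *Myh1* 11.6%, *Myh4* 1.76% and *Myh2* 1.38%. In WT LPS 11, with 10751 counts, *Myh8* took 55.7%, *Myh3* 37.8%, *Myh1* 5.32% and *Myh4* 1.06%. The embryonic share thus spanned 3.37% (exact 95% Clopper-Pearson interval 3.16% to 3.60%) to 37.8% (36.8% to 38.7%). These intervals, which cover counting error only, did not overlap, although the 3 mice shared genotype and treatment. Its mean in WT LPS was 19.9% ± 17.2 (SD, n = 3).

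The neonatal form led in every library. *Myh8* took 64.5% to 88.0% of the skeletal counts in WT PBS, 71.4% to 72.2% in *Adm*+/- PBS and 65.5% to 84.4% in *Adm*+/- LPS, from 25 to 260 counts per library. At this depth the intervals are wide, as in WT PBS 4 (68.8% to 97.5%). Divided by exon length, the mean *Myh8* share in WT LPS was 50.7% in place of 65.9%, and in WT LPS 11 *Myh3* (52.0%) then exceeded *Myh8* (39.4%).

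**Figure D2:**
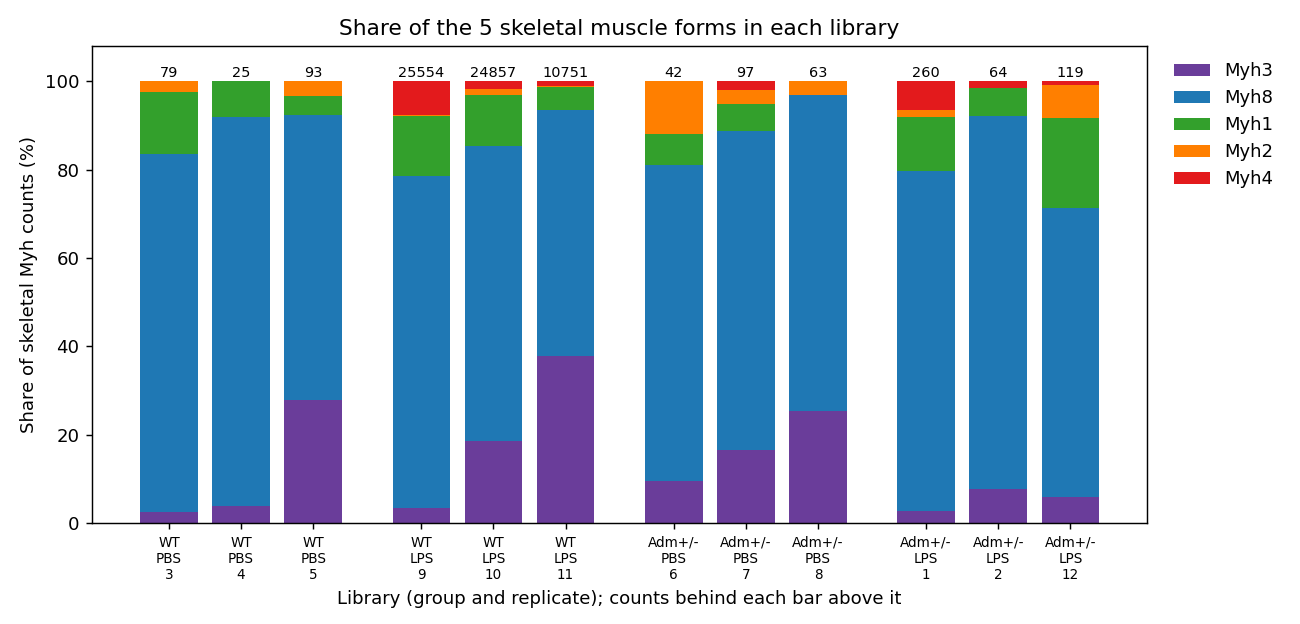
Share of the 5 skeletal forms in the summed skeletal *Myh* counts of each library (y axis, percent of counts), with the counts behind each bar above it. *Myh8* takes the most counts in all 12 bars, and *Myh3* goes from 3.37% in WT LPS 9 to 37.8% in WT LPS 11.

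Other genes of the fast sarcomere were high in the same 3 libraries. The list holds 15 genes, of which 13 were tested and 12 were called higher in WT LPS than in WT PBS, with a median log2 fold change of 5.07 over the list and 0.01 over all genes. Of all genes 10.5% were called in that direction. This list and those that follow were chosen with these results known, so counts of their genes called higher in WT LPS carry no further weight. *Acta1*, skeletal muscle actin, had 594, 527 and 185 CPM in WT LPS 9, 10 and 11 and at most 2.90 CPM in the PBS libraries, and had the largest log2 fold change of the list at 8.08. The regulatory light chain *Mylpf* had 145, 155 and 59.3 CPM, each far above the 1.31 to 1.85 CPM of WT PBS. *Actn3*, *Myl1*, *Tnnt3* and *Tnni2* were called higher as well, with log2 fold changes of 4.79 to 6.66. *Pygm*, muscle glycogen phosphorylase, had the smallest at 0.15, with 52.7 to 87.0 CPM in WT LPS and 54.8 to 80.9 CPM in WT PBS. *Tnnc2* and *Pvalb* of the same list were at or near 0 in every library, with at most 0.291 CPM.

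Among 16 genes of the slow or shared sarcomere, 9 were called higher in WT LPS, against 10.5% of all genes, and 0 lower, with a median log2 fold change of 1.64. *Ttn*, the giant spring protein titin, had 2051, 3165 and 1512 CPM in WT LPS against 280 to 709 CPM in WT PBS. *Neb*, the nebulin ruler of the thin filament, had 244, 293 and 143 CPM against 8.03 to 12.5 CPM. The largest log2 fold change was 8.88 for *Mybpc1*, and the smallest was −1.35 for the oxygen store *Mb*, which was not called.

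Myogenic regulators were counted in WT LPS too, and their order of libraries differed from gene to gene. Of 16 genes for muscle determination, cell fusion, the acetylcholine receptor and myosin folding, 11 were called higher in WT LPS, against 10.5% of all genes, and 0 lower (median log2 fold change 2.52). Of those called, *Myod1*, *Myf5*, *Pax7* and *Mymx* had at most 2 counts in any library outside WT LPS and passed the filter through that group. With the 4 genes at 0 in every WT PBS library set to their lower bound, this median was the same. The determination factor *Myod1* had 0.678, 3.74 and 3.46 CPM in WT LPS 9, 10 and 11 and 0 counts in the other 9 libraries. *Myog* had 2.71, 11.9 and 10.2 CPM, and the satellite cell factor *Pax7* 0.955, 3.45 and 3.07 CPM. These 3 genes were lowest in WT LPS 9, as was *Myh3*, whereas *Myh4* and *Acta1* were highest there. *Myf6* had 3.85, 4.16 and 1.51 CPM, lowest in WT LPS 11 as were *Myh8* and *Myh1*, and *Myf5* had at most 1.99 CPM in WT LPS. *Fbxo32* and *Trim63*, ubiquitin ligases of muscle, were highest in WT LPS 9 (67.7 and 6.16 CPM). *Trim63* was not called, and its 1.95 CPM in WT LPS 11 lay below the 3.34 CPM of WT PBS 5. The list's most abundant genes, *Mef2c*, *Fbxo32* and *Unc45b*, were also present in PBS lungs, and *Mef2c* and the myosin chaperone *Unc45b* were not called (−0.05 and −0.03).

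Markers of squamous epithelium, which lines the oesophagus and other surfaces, were highest in 2 of the 3 WT LPS libraries. The summed level of the 15 genes was 3571 CPM in WT LPS 9, 46.3 CPM in WT LPS 10 and 1845 CPM in WT LPS 11. It was 14.1 to 34.3 CPM in WT PBS, 14.7 to 20.9 CPM in *Adm*+/- PBS, and 69.6, 33.2 and 23.4 CPM in *Adm*+/- LPS 1, 2 and 12. *Krt4* had 1382, 11 and 755 CPM in WT LPS 9, 10 and 11, *Krt13* 1027, 9.52 and 542 CPM and *Krt15* 450, 7.24 and 230 CPM. In the PBS libraries *Krt4* had at most 1.98 CPM and *Krt13* at most 0.155 CPM, so WT LPS 10 lay above them for these genes. For *Krt15* it did not, with 9.45 CPM in WT PBS 5. Of the 11 tested genes 9 were called higher in WT LPS than in WT PBS, against 10.5% of all genes. *Dsg3* and *Pkp1*, both called, had at most 2 counts in any PBS library and passed the filter through WT LPS. The count of genes called therefore carries no further weight. WT LPS 10, with the lowest squamous level of the 3, had the highest skeletal *Myh* level, 1034 CPM against 788 and 428 CPM. The part of other tissue in the skeletal levels was not tested. In whole-lung RNA, more cells of a type and more RNA per cell cannot be told apart.

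**Figure D3:**
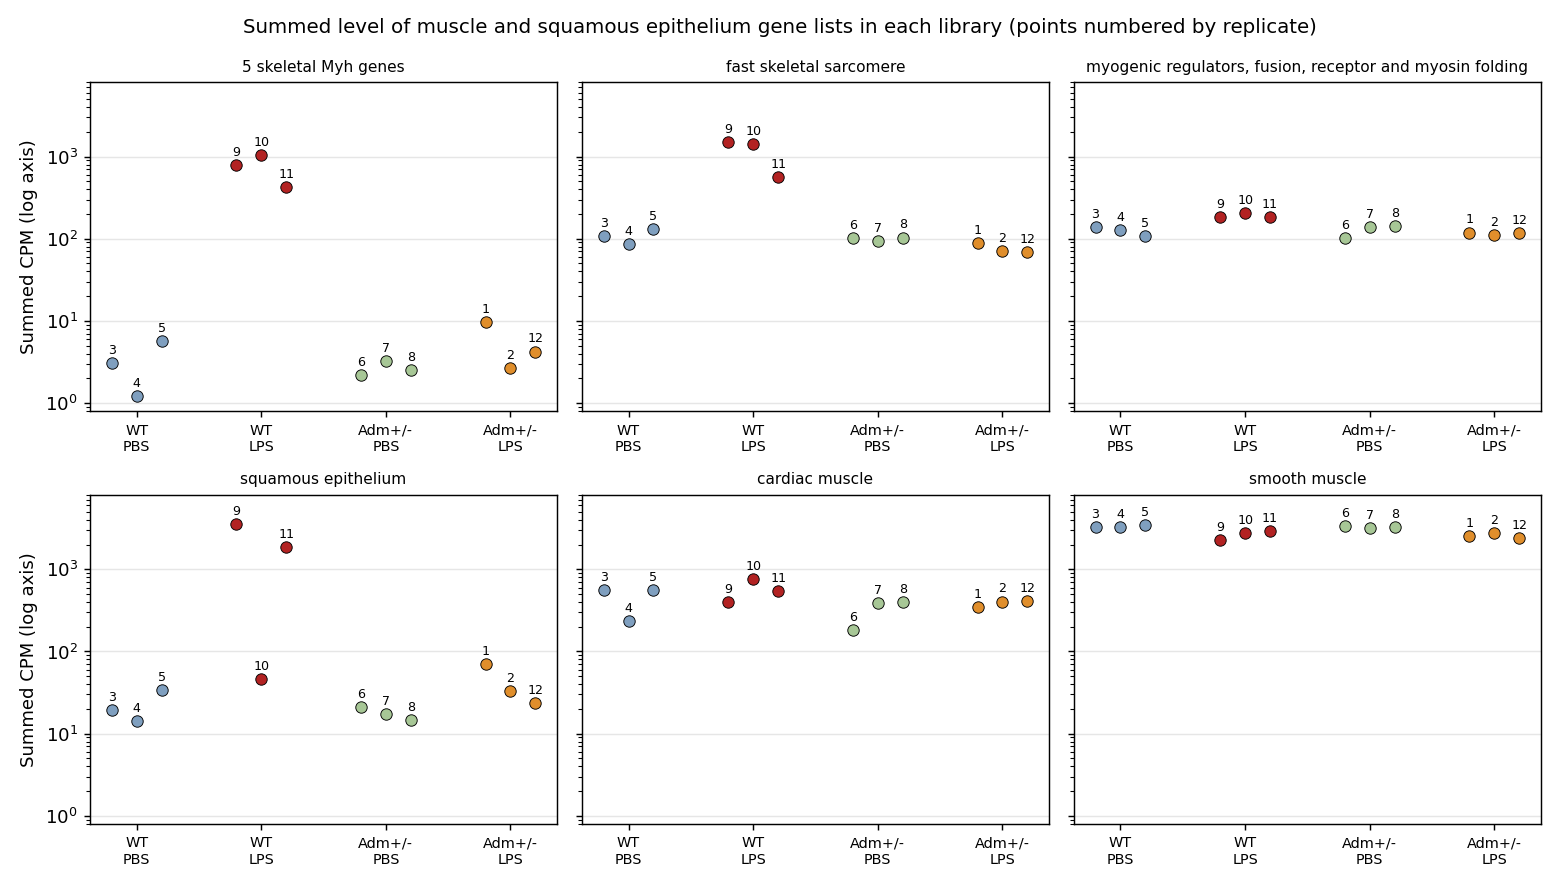
Summed CPM per library (log axis) of the 5 skeletal *Myh* genes and of 5 gene lists, with points numbered by replicate. Skeletal *Myh* and fast sarcomere genes are high in WT LPS 9, 10 and 11. Squamous markers are highest in WT LPS 9 (3571 CPM) and 11 (1845 CPM), with 46.3 CPM in WT LPS 10 and at most 34.3 CPM in the PBS libraries.

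Other tissues that can border a dissected lung were checked in the same way. The summed level of 6 brown fat genes was 19.5 to 25.8 CPM in WT LPS and 10.6 to 25.8 CPM in WT PBS, and the fat marker *Ucp1* was highest in WT PBS 5 (9.39 CPM). The regulator *Ppargc1a* was the only one of 5 tested genes called, higher after LPS in both genotypes (0.79 in WT and 1.04 in *Adm*+/- mice). Of all genes, 10.5% were called higher in WT mice and 25.0% in either direction in *Adm*+/- mice. The 6 cartilage genes summed to 12.6 to 52.9 CPM in WT LPS and reached 164 CPM in WT PBS 5, mostly from *Col2a1*. None of its 5 tested genes was called. The 6 thymus genes summed to 1.98 to 6.06 CPM in WT PBS, 1.63 to 1.91 CPM in WT LPS and 1.35 to 3.82 CPM in the *Adm*+/- libraries. Of the 3 tested, *Themis* was called lower after LPS in *Adm*+/- mice (log2 fold change −1.36, adjusted p = 0.0342 from edgeR), where 12.2% of all genes were. Lists of 3 to 5 tested genes are too short to be set apart from these shares.

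In *Adm*+/- mice the skeletal forms stayed low after LPS. Their summed level was 9.72, 2.68 and 4.24 CPM in *Adm*+/- LPS 1, 2 and 12 and 2.21, 3.28 and 2.50 CPM in *Adm*+/- PBS 6, 7 and 8, so that the groups overlapped. *Myh1* was at 2.58 on the log2 scale with a standard error of 1.14 (edgeR, adjusted p = 0.108) and *Myh8* at 1.11 with one of 0.56 (edgeR, adjusted p = 0.156). *Myh3* was at −0.98 (edgeR, adjusted p = 0.616). None of these 3 was called. *Myh2* and *Myh4*, which passed the filter on counts of WT LPS, are given by their counts with no test. *Myh2* had 13 counts after LPS and 10 after PBS. *Myh4* had 19 against 2 counts, a ratio of summed counts of 8.91 with an exact 95% interval of 2.15 to 78.9 for counting error only, and 17 of the 19 were from *Adm*+/- LPS 1. Both counts of *Myh4* after PBS were from *Adm*+/- PBS 7. The log2 fold change of *Myh8* was 0.38 without *Adm*+/- LPS 1, and that of *Myh1* was 3.36 without *Adm*+/- PBS 7. *Myh1* was called with DESeq2 (log2 fold change 2.63, adjusted p = 0.0389), and with edgeR without WT LPS 11 (2.58, adjusted p = 0.0319). *Adm*+/- LPS 1 was the highest library of its group for the skeletal sum, for *Acta1* (10.2 CPM against 2.05 and 4.24) and for the squamous list, whose part was not tested. *Acta1* was the only gene of the fast sarcomere list called higher in these mice (log2 fold change 3.16, adjusted p = 0.0109 from edgeR), and *Pygm* was called lower (−1.05). Of all genes, 25.0% were called in either direction in this comparison. Of the 16 slow or shared genes 0 were called in these mice, at a median log2 fold change of 0.19. *Cacna1s* and *Mybpc1* of that list passed the filter through WT LPS and are no test here. Most squamous genes were near 0 in *Adm*+/- PBS and are given by level with no test. *Krt4* had 19.3, 4.82 and 1.75 CPM in *Adm*+/- LPS 1, 2 and 12 and 0.358 to 0.579 CPM in *Adm*+/- PBS, and *Krt13* had 13.0, 2.43 and 0.356 CPM against at most 0.105 CPM. The squamous sums of the 3 *Adm*+/- LPS libraries lay above those of *Adm*+/- PBS. Of the 16 myogenic genes, the fusion factor *Mymk* (4.16) and the ubiquitin ligase *Fbxo32* (1.17) were called higher and *Mef2c* (−1.02) lower. *Myod1*, *Myf5*, *Pax7* and *Mymx*, with at most 2 counts in any *Adm*+/- library, passed the filter through WT LPS and are no test here. *Mymk* was called in WT mice too (2.87), with 2.43 to 6.57 CPM in WT LPS and 2.88 to 4.19 CPM in *Adm*+/- LPS.

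Set against WT LPS, *Adm*+/- LPS lungs had lower levels of all 5 skeletal forms. Here 4 of the 8 members were called lower, against 1.72% of all genes, with log2 differences of −9.01 for *Myh3*, −6.92 for *Myh8*, −6.78 for *Myh1* and −6.81 for *Myh4*, while *Myh2* (−5.01) was not called. *Myh4* was not called when *Adm*+/- PBS 7 or *Adm*+/- LPS 1, 2 or 12 was left out (−9.30 to −6.28) and was at −5.53 without WT LPS 9, and *Myh2* was called without WT PBS 5, WT LPS 9 or WT LPS 11 (−5.55 to −5.0). *Myh2* was at −2.67 without WT LPS 10 and at −6.02 without *Adm*+/- LPS 12, and *Myh8* was at −7.64 without *Adm*+/- LPS 1. All 13 tested genes of the fast sarcomere list were called lower too. The difference between the LPS responses of the genotypes, *Adm*+/- minus WT, was called for *Myh8* alone (−6.62, standard error 0.80), against 0.145% of all genes. *Myh3* (−8.99), *Myh1* (−5.67) and *Myh2* (−5.75) had larger standard errors of 1.72 to 2.43. Without WT PBS 5 the differences of *Myh3* and *Myh2* were −11.82 and −6.58, and without WT LPS 10 that of *Myh2* was −3.41. With 1 library left out that of *Myh1* ran from −6.36, without WT PBS 3, to −4.88, without *Adm*+/- PBS 7. Without *Adm*+/- LPS 1 that of *Myh8* was −7.35. *Myh8* was not called in this difference without *Adm*+/- PBS 7 (−6.42), and *Myh3* was called without WT LPS 9 (−9.46). *Myh7* also had 3 *Adm*+/- LPS libraries below all 3 WT LPS libraries, which held for 12.4% of all genes, at a log2 difference of −0.69 that was not called. These 2 comparisons and that of WT LPS with WT PBS share the 3 WT LPS libraries, by which the genes were chosen, so that the counts of members called carry no further weight.

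*Myh7* was the member called in *Adm*+/- mice. *Myh7* (ENSMUSG00000053093), the beta chain of heart and slow fibres, had 57.1, 37.5 and 42.1 CPM in *Adm*+/- PBS 6, 7 and 8 and 27.2, 21 and 28.4 CPM in *Adm*+/- LPS 1, 2 and 12. Every LPS library lay below every PBS library, which held for 27.1% of all genes. The mean fell from 45.6 ± 10.3 to 25.5 ± 3.94 CPM (SD, n = 3), a log2 fold change of −0.83 with a standard error of 0.28 (edgeR, adjusted p = 0.0402). It was 1 of 8 members called, where 25.0% of all genes were called in either direction and 12.2% lower. The call was close to the threshold. It was lost in a test against a log2 fold change of 0.5 (glmTreat, adjusted p = 0.244). It was also lost in edgeR without *Adm*+/- PBS 6 (−0.65, adjusted p = 0.141), *Adm*+/- PBS 8 (adjusted p = 0.0684), *Adm*+/- LPS 1 (0.0838), *Adm*+/- LPS 2 (0.133), *Adm*+/- LPS 12 (0.0737) or WT LPS 10 (0.0521). Without both WT PBS 5 and *Adm*+/- PBS 6 it was kept (−0.64, adjusted p = 0.0301 from edgeR). In WT mice *Myh7* had 44.8, 34.6 and 76.6 CPM in PBS and 31.7, 43 and 49.1 CPM in LPS, with overlap and a log2 fold change of −0.33, which was 0.05 without WT PBS 5. The difference of the responses was −0.50 and not called.

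*Myh6* (ENSMUSG00000040752), the alpha chain of heart muscle, varied between the mice of 3 of the 4 groups and less in *Adm*+/- LPS. It had 317, 116 and 355 CPM in WT PBS 3, 4 and 5 and 131, 276 and 154 CPM in WT LPS 9, 10 and 11. In *Adm*+/- mice it had 71.8, 205 and 230 CPM in PBS and 198, 225 and 235 CPM in LPS. The lowest libraries were *Adm*+/- PBS 6 and WT PBS 4, and the groups overlapped in each comparison. The log2 fold change after LPS was −0.49 in WT mice, not called, and 0.38 in *Adm*+/- mice, with a standard error of 0.46 (edgeR, adjusted p = 0.567).

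The alpha share of the cardiac forms, *Myh6* over *Myh6* plus *Myh7*, was 87.6%, 77.1% and 82.3% of counts in WT PBS 3, 4 and 5 and 80.6%, 86.5% and 75.8% in WT LPS 9, 10 and 11. In *Adm*+/- PBS 6, 7 and 8 it was 55.7%, 84.5% and 84.5%, and in *Adm*+/- LPS 1, 2 and 12 it was 88.0%, 91.5% and 89.2%. The 3 *Adm*+/- LPS libraries had the 3 highest shares of the 12 and did not overlap *Adm*+/- PBS, and *Adm*+/- PBS 6 had the lowest. Means were 74.9% ± 16.6 in *Adm*+/- PBS and 89.5% ± 1.77 in *Adm*+/- LPS (SD, n = 3), and 84.5% in *Adm*+/- PBS without library 6. Across the 12 libraries, which share depth and treatment groups, log2 CPM of *Myh6* and *Myh7* had a Pearson r of 0.04, given as a description.

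**Figure D4:**
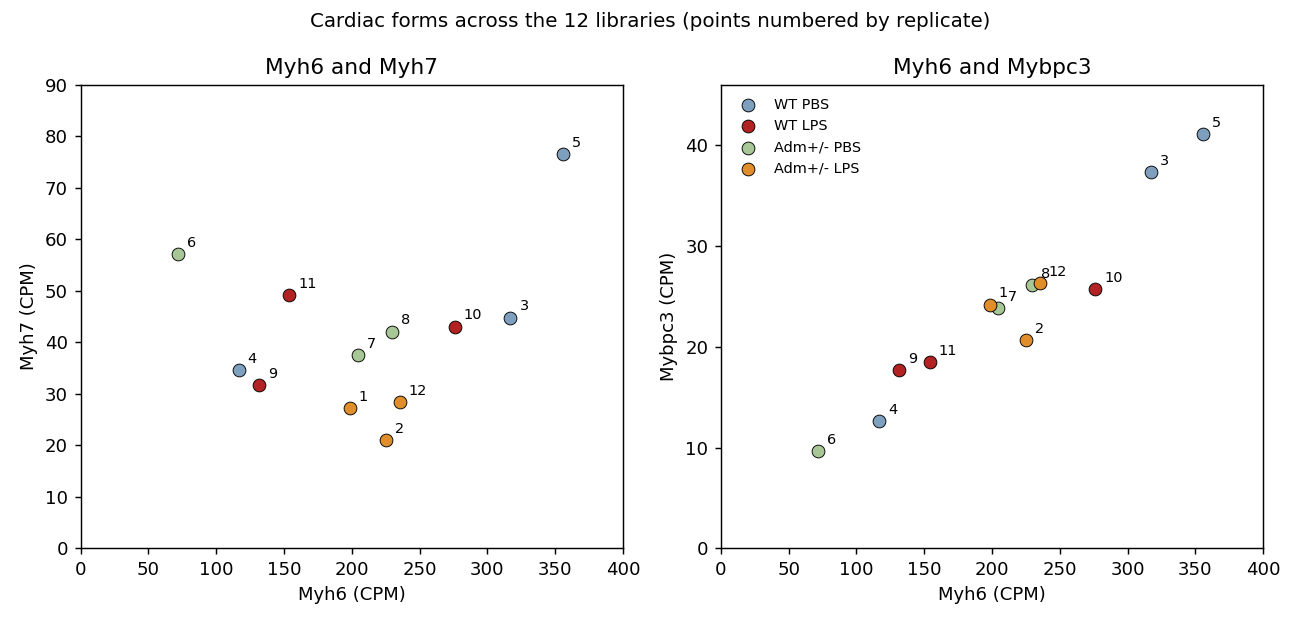
*Myh7* (left) and the cardiac protein gene *Mybpc3* (right) against *Myh6*, in CPM, with 1 point per library coloured by group and numbered by replicate. *Mybpc3* rises with *Myh6* (r = 0.97 on log2 values), whereas *Myh7* does not (r = 0.04), and the *Adm*+/- LPS libraries have the 3 lowest *Myh7* levels.

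Of 15 other cardiac muscle genes, 14 were tested, and in WT LPS 3 were called higher than in WT PBS, against 10.5% of all genes (median log2 fold change 0.09). These were *Sln* (1.91), *Hrc* (1.64) and *Actn2* (1.62), genes that skeletal muscle also uses, and *Tnni3* had the smallest log2 fold change at −0.78. In *Adm*+/- mice 0 were called after LPS, against 25.0% of all genes in either direction, and the largest was *Actc1* (0.69) and the smallest *Nppa* (−0.61). The most abundant of the list were *Actc1*, *Ryr2* and *Myl4*. *Myl4*, an atrial light chain, had 25.8 CPM in *Adm*+/- PBS 6 and 33.1 CPM in WT PBS 4, the 2 libraries lowest in *Myh6*, and 42.3 to 112 CPM in the others. *Nppb* was at or near 0 in every library, and *Nppa*, the hormone gene of the atria, had at most 0.457 CPM.

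*Myh11* (ENSMUSG00000018830) had the highest level per kb of coding sequence in the PBS lungs of both genotypes (82.4 and 73.1 CPM). It had 392, 455 and 621 CPM in WT PBS, 308, 440 and 562 CPM in WT LPS, 514, 387 and 401 CPM in *Adm*+/- PBS, and 304, 325 and 290 CPM in *Adm*+/- LPS. The *Adm*+/- LPS libraries lay below all *Adm*+/- PBS libraries, as in 27.1% of all genes, and the WT groups overlapped. The mean in *Adm*+/- mice went from 434 ± 70.0 to 306 ± 17.4 CPM (SD, n = 3), −0.50 on the log2 scale with a standard error of 0.22, which was not called (edgeR, adjusted p = 0.0998). Without 1 library the log2 fold change ran from −0.58 to −0.37. It was called when only the 6 libraries of the comparison were fitted (−0.50, adjusted p = 0.0125 from edgeR). In WT mice the log2 fold change was −0.16, and 0.04 without WT PBS 5.

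Smooth muscle genes were lower after LPS where they were called at all. In *Adm*+/- mice 5 of 15 were called lower, against 12.2% of all genes, and 0 higher (median log2 fold change −0.35), namely *Smtn*, *Lmod1*, *Mylk*, *Itga8* and *Hhip*, from −0.71 to −0.64. *Mylk*, the kinase that switches on smooth muscle myosin, had 809 to 966 CPM in *Adm*+/- PBS and 527 to 573 CPM in *Adm*+/- LPS. In WT mice *Smtn* (−0.61) and *Mylk* (−0.66) were called lower, where 7.09% of all genes were, and the median was −0.16. *Acta2* and *Npnt*, with *Mylk* the most abundant of the list, were not called in either genotype, and *Actg2* had the largest log2 fold change in WT mice (0.55, not called), with 136 CPM in WT LPS 11 against 70.9 and 80.9 CPM.

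Between the genotypes under PBS no member was called. The edgeR fit called 0 of 8 members and 0 of 15885 genes (0%), as did DESeq2 and limma-voom, while 344 genes and 0 members had an unadjusted p under 0.05 in edgeR. Log2 differences, *Adm*+/- minus WT, were −0.64 for *Myh6* (standard error 0.46), −0.19 for *Myh7* (0.28), −0.17 for *Myh11* (0.22) and −0.29 for *Myh8* (0.60), with adjusted p of 0.999 each from edgeR. Without WT PBS 5 and *Adm*+/- PBS 6 that of *Myh6* was 0.0028. *Myh3* and *Myh1* had standard errors of 1.29 and 1.42, so that differences of that size could not have been seen, and *Myh2* (10 against 5 counts) and *Myh4* (2 against 0) had few counts.

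**Figure D5:**
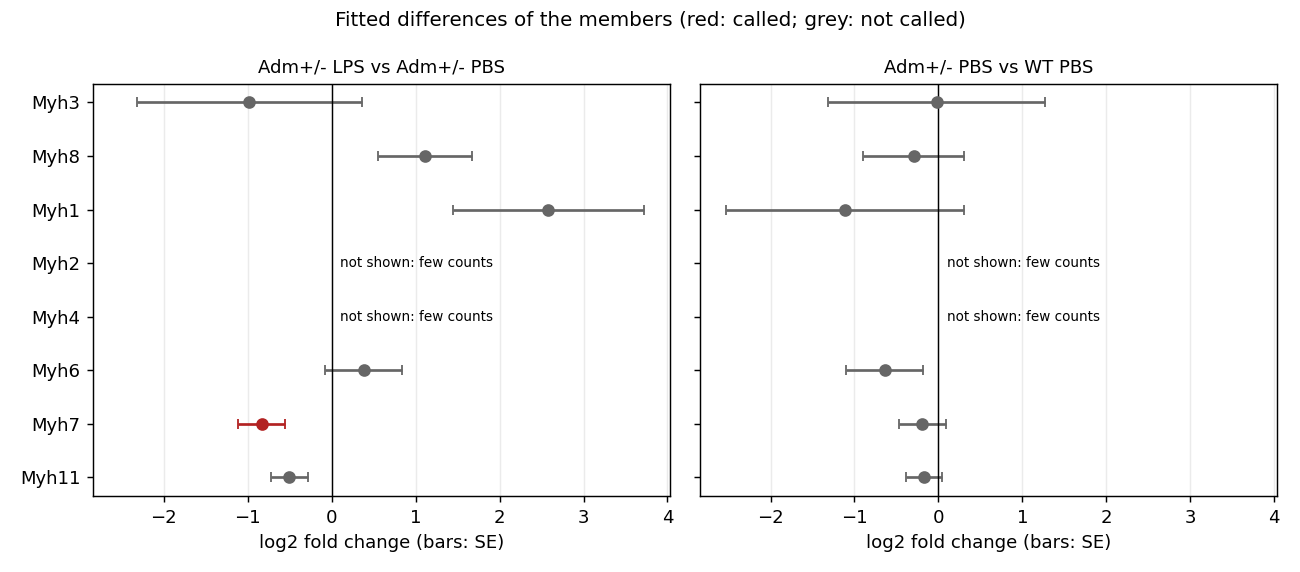
Log2 fold change of 6 members with its standard error in *Adm*+/- mice after LPS (left) and between genotypes under PBS (right), from the edgeR fit. *Myh7* at −0.83 is the only member called (red), and *Myh3* and *Myh1* have the widest bars. *Myh2* and *Myh4* are not shown, for their few counts.

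Other myosin heavy chain genes did not follow the skeletal forms. *Myh9*, *Myh10* and *Myh14*, the non-muscle chains, had mean levels of 2070, 617 and 575 CPM over the 12 libraries. *Myh10* was called lower after LPS in both genotypes, with log2 fold changes of −1.26 in WT and −1.12 in *Adm*+/- mice. Of all genes, 7.09% were called lower in WT and 12.2% in *Adm*+/- mice. *Myh9*, *Myh14*, *Myh7b* and *Myh13* were not called. *Myh13*, the extraocular form that lies next to *Myh8* in the cluster, had at most 0.618 CPM and was not higher in WT LPS (0.0398 to 0.185 CPM). *Myh15* had 0 counts in all 12 libraries. In 0 of these 6 genes did WT LPS lie above the other 9 libraries. That held for only 3.00% of all genes tested, so the count says little about these 6.

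The genes closest to each member were sought among 14593 genes with a mean of at least 1 CPM, by Pearson's r of log2 CPM over 12 libraries. For the summed skeletal forms they were *Mybpc1* (r = 0.99), *Ryr1* (0.99), *Tnni2* (0.99), *Myl1* (0.99) and *Mylpf* (0.99), where 3 WT LPS libraries stand far from the rest, and over the other 9 libraries r was 0.63 to 0.87. For *Myh6* they were *Mybpc3* (0.97), *Myl7* (0.94), *Tnni3k* (0.93), *Esrrg* (0.93) and *Tnnt2* (0.92). For *Myh7* they were *Prob1* (0.98), *Foxo6* (0.98), *Lyl1* (0.98), *Ccdc88c* (0.97) and *Sec14l1* (0.97), none of which is on the muscle lists. For *Myh11* they were *Kank2* (0.94), *Ppfia4* (0.94), *Cnp* (0.93), *2210011C24Rik* (0.93) and *Pnck* (0.93). *Myh7* and *Myh11* had an r of 0.88 with each other, or 0.78 over the 10 libraries without WT PBS 5 and *Adm*+/- PBS 6. The libraries share treatment, depth and composition, so these values describe likeness only.

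Non-coding genes at these loci had few counts. *Myhas*, antisense to *Myh1*, had 13, 4 and 0 counts in WT LPS 9, 10 and 11 and 0 in the other 9 libraries, in the order of *Myh4*. The non-coding gene 2310065F04Rik, between *Myh3* and *Myh2*, had 3, 5 and 4 counts in WT LPS and 0 elsewhere. *Mhrt*, opposite *Myh7*, had 2 to 27 counts per library with no group apart from the others. The kit is directional, and the strand setting of the counting is not given in the sources used here, so reads of an antisense gene and of the gene it overlaps may not be fully told apart.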

How the data were processed

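Whole-lung RNA of 12 postnatal day 5 mice, 3 in each of 4 groups, was sequenced from rRNA-depleted directional libraries. According to the sources used here, reads were trimmed with Trim Galore, aligned to mm10 with HISAT2 and assigned to genes with featureCounts, and the authors deposited raw counts for 52550 genes. The Gencode release, the strand setting and the treatment of reads shared between genes are not given in the sources used here.

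Counts were fitted with edgeR 4.0.16 in R 4.3.3 (TMM normalisation, filterByExpr, quasi-likelihood F-test, Benjamini-Hochberg adjustment) over 12 libraries, with genotype and treatment combined into 4 groups, on 15885 of 21950 protein-coding genes. DESeq2 1.42.0, limma-voom (limma 3.58.1), a test against a fold change (glmTreat), other size factors, no filter, all annotated genes, the libraries of 1 comparison alone and fits without each library were alternatives. The model code was tested on simulated data. The depth per library was 22382535 to 38062873 counts, with a median of 28494877. Intervals of shares and of count ratios are exact (Clopper-Pearson, 95%), and the floor for a count of 0 is 3 counts. Both cover counting error only, since no molecular identifiers were used. No 2 replicates had identical counts or agreed within sampling noise. Correlations used log2 CPM with a prior count of 2. Gene positions, lengths and coding sequences are from Gencode M21 (GRCm38), in which 52403 of the 52550 genes were found, and promoters from RefSeq (GRCm38.p6). For GRCm38 and mm10 the coordinates are the same.

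The members and gene lists were chosen with earlier results of these data known. Named were all members, all other *Myh* genes and, of each list, the 3 with the highest mean CPM, those with the largest and smallest log2 fold change and up to 5 more in list order. Other genes were named because they were called, at 0 or decisive for a count, after their values were seen.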

Additional observations from a re-analysis of the deposited data

Results flagged for a closer look

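Among the members, *Myh8* was called in the interaction term of the edgeR fit, at a log2 difference of LPS responses (*Adm*+/- minus WT) of −6.62, which is given as a description. This term was called lower for 0.145% of all genes. It was called as well for 7 of the 13 tested genes of the fast sarcomere list, namely *Atp2a1* (−5.44), *Mylpf* (−5.53), *Tnni2* (−5.27), *Actn3* (−4.98), *Tnnt3* (−4.46), *Casq1* (−2.93) and *Eno3* (−1.81). Of the 16 slow or shared genes it was called for *Ryr1* (−5.27) and *Neb* (−3.68). All 10 differences use the 3 WT LPS libraries in which these genes were high, by which the members were chosen, and are no independent evidence.

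Counts on 2 non-coding genes of the skeletal cluster were seen in WT LPS alone. *Myhas* had 17 counts in that group and 2310065F04Rik had 12, with 0 in each of the other 9 libraries. Groups of 3 were not searched for single outlying libraries.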

How the results depend on the processing

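No paired analysis was possible because no pairing of mice between groups, such as by litter, is given in the sources used here. Of 320 member fold changes under settings other than leaving out 1 library, 296 kept their direction and side of the threshold, and of 444 with 1 library left out 418 did. In *Adm*+/- LPS against *Adm*+/- PBS, where 1 member was called, DESeq2 called 2, glmTreat 0, a fit of only those 6 libraries 2, and fits without 1 library 0 to 2. For the difference of LPS responses (1 called) DESeq2 called 3, limma-voom 0, a fit without WT LPS 9 and 11 together 2, and fits without 1 library 0 to 2. The causes were not tested. Per exon length, the mean share of *Myh8* in WT LPS was 50.7% and that of *Myh6* in *Adm*+/- LPS 91.6%. With limma-voom *Myh2* in *Adm*+/- mice after LPS was at −0.39 and *Myh3* between genotypes under PBS at 1.19. With 1 library left out, log2 values that changed sign ran from −0.56 to 0.051 for *Myh7* and −0.39 to 0.042 for *Myh11* in WT mice after LPS, from −0.78 to 0.80 for *Myh2* in *Adm*+/- mice after LPS, and, between genotypes under PBS, from −0.65 to 2.81 for *Myh3*, −0.65 to 0.091 for *Myh8*, −0.41 to 0.19 for *Myh7* and −0.31 to 0.035 for *Myh11*. Without WT PBS 5 and *Adm*+/- PBS 6 together, *Myh7* (0.051) and *Myh11* (0.042) changed sign in WT mice after LPS, as did *Myh3* (3.09), *Myh8* (0.20), *Myh6* (0.0028) and *Myh7* (0.0053) between genotypes under PBS. None of these values was called. Without WT LPS 9 and 11 together, chosen after seeing the data and with WT LPS 10 assumed to vary like the other libraries, *Myh6* was at 0.069 in WT mice after LPS and at −0.33 between genotypes under LPS. Coding length from a protein table was planned and not run, and coding length from Gencode M21 was added after seeing the data in its place. Depth limits the 4 skeletal forms other than *Myh8* outside WT LPS, where a library held at most 32 counts of each.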
